A study of Mus musculus with 2 samples.

Results

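The genes described here are 10 members of the Notch pathway: the receptors Notch2 and Notch3, the receptor-modifying enzymes Lfng and Mfng, the nuclear factors Rbpj and Maml1, the modifiers Dtx1 and Nrarp, and the repressors Hes1 and Hes6. They were chosen by gene symbol, and a probe carries the symbol of 8 of the 10, with 1 probe each, among 10208 distinct symbols in all. Expression of Notch2 and Maml1 was not analysed here. Both samples are 1F9 cells, a line from a thymoma of an E2A-/- mouse, which therefore lacks the E2A proteins E12 and E47. In one culture the cells carried a retrovirus for a fusion of E47 with part of the oestrogen receptor (E47-ER, labelled ER47TX), which 4-hydroxytamoxifen activates. In the control culture (bHLH-ER, labelled bHLHERTX) the virus encoded the bHLH region in place of E47 and so no N-terminal transactivation domain. Infected cells of both kinds received 4-hydroxytamoxifen for 6 hours beginning 1 day after infection, and were purified by the human CD25 marker of the virus. One Cy3 array was hybridised per construct, so the differences below have no replicate check and no p-value, and an effect of the construct cannot be told apart from unrelated variation of cultures or arrays. Groups were taken from the titles, since the free text of both samples names the E47 fusion.

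Notch receptors are cut after they bind a ligand on a neighbouring cell, and the freed intracellular part enters the nucleus, where it joins the DNA-binding protein Rbpj and a coactivator of the Mastermind family to switch on targets such as Hes1, Nrarp and Dtx1. In the thymus, Notch1 signalling commits progenitors to the T lineage, and E proteins act beside it on early T-cell genes such as Ptcra. Lymphomas of E2A-deficient mice are known to depend on Notch1, for which no probe is named in the annotation used here.

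The members differed in both directions and by small amounts. Notch3 was 1.77-fold higher and Hes6 1.48-fold higher with E47-ER, Rbpj and Mfng differed by 1.11-fold, and the Notch targets Dtx1 and Nrarp were 1.11-fold and 1.28-fold lower. The other 2 members with a probe, Hes1 and Lfng, were dim on both arrays. In RNA pooled from the purified cells of a culture, fewer cells expressing a gene and less RNA per cell cannot be told apart. A gene was called measured when the mean of its log2 levels on both arrays was at or above the all-probe median. This limit corresponds to a scaled intensity of about 1.03. Of all 10208 named genes 5563 reached it, and of the 8 members 6. None of the 6 was at least 2-fold higher, against 1.35% of the 5563 measured genes, and none was at least 2-fold lower, against 0.27%. At 1.5-fold, 1 of the 6 was higher, against 5.41% of measured genes, and none lower, against 1.24%. With so few members these shares cannot be told from the background. The median log2 difference, E47-ER minus bHLH-ER, was 0.15 over the 6 members and 0.11 over all measured genes, and 4 of the 6 were above 0, as were 66.7% of measured genes.

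**Figure D1:**
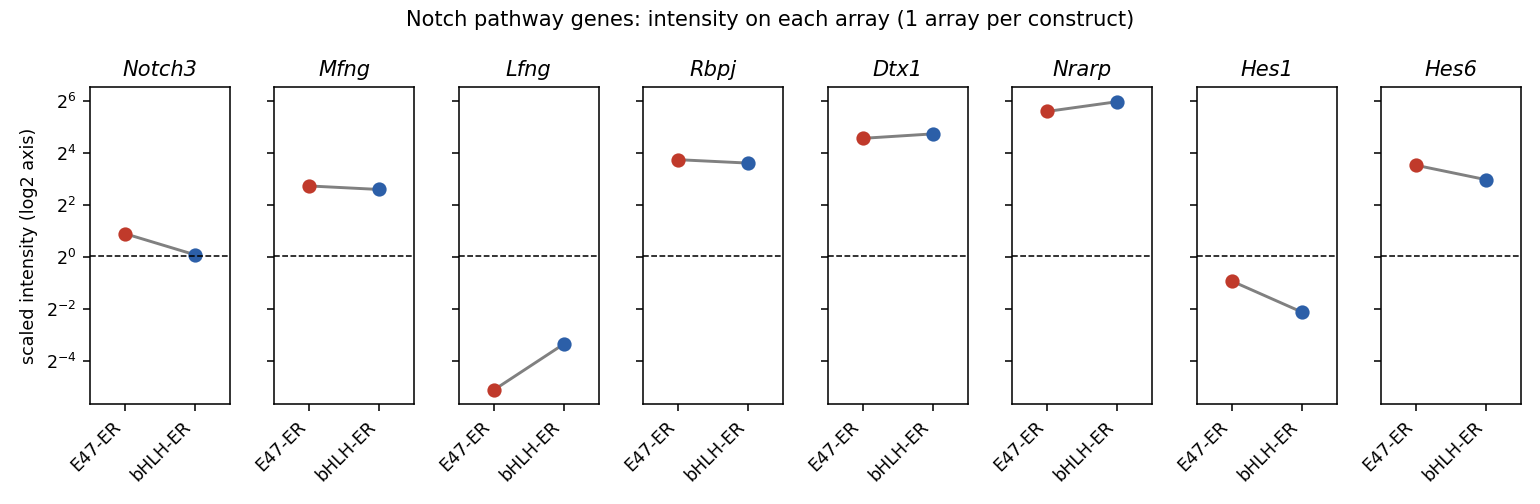
Scaled intensity of the 8 members with a probe on the E47-ER array (left, red) and the bHLH-ER array (right, blue), on a log2 axis, 1 panel per gene and 1 array per construct. The dashed line is the level limit of about 1.03; Notch3 lay at 1.86 with E47-ER and at 1.06 with bHLH-ER, while both points of Hes1 and of Lfng are under the line.

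The receptor gene Notch3 (Entrez gene 18131), which Notch signalling itself is known to activate in thymocytes, had an intensity of 1.86 on the E47-ER array and 1.06 on the bHLH-ER array. The E47-ER value was thus the higher one, and the bHLH-ER value lay next to the level limit. Its log2 difference of 0.83 was exceeded by 125 of the 5563 measured genes. Among the 200 named genes nearest to Notch3 in mean level, 5 had a more positive difference. The median of those 200 was -0.01, with a robust SD of 0.28 (from the median absolute deviation), so Notch3 lay outside the bulk of genes of its level. Adding 0.5 to all intensities before taking logs, which damps differences of dim probes, lowered it to 0.61. The other receptor gene with a probe, Notch4, was under the level limit, at 0.0818 with E47-ER and 0.0931 with bHLH-ER.

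Fringe enzymes extend the O-fucose sugars on Notch receptors and so change which ligands the receptors answer to. Mfng (Entrez gene 17305), the manic fringe gene, had intensities of 6.63 with E47-ER and 6.03 with bHLH-ER. Its log2 difference of 0.15 was smaller than the pooled SD of 0.20 between different probes of one gene on these arrays (55 measured genes with several probes). That SD holds only disagreement between probes on the same pair of arrays, not variation between cultures. Of the 200 genes of the level of Mfng, 84 had a more positive difference. Lfng (Entrez gene 16848), the lunatic fringe gene and the one known to matter most for thymocyte Notch responses, was close to 0 on both arrays, at 0.0287 with E47-ER and 0.0977 with bHLH-ER. The corresponding 3.37-fold lower value rests on intensities where differences past 2-fold were common. Of the 200 genes nearest in level, 46 passed 2-fold downward and 28 upward, and their robust SD was 1.09. A less positive difference than that of Lfng was seen in 17 of the 200. With 0.5 added before the log, the difference of Lfng was -0.17. A difference in Lfng was therefore not measurable on these arrays.

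**Figure D2:**
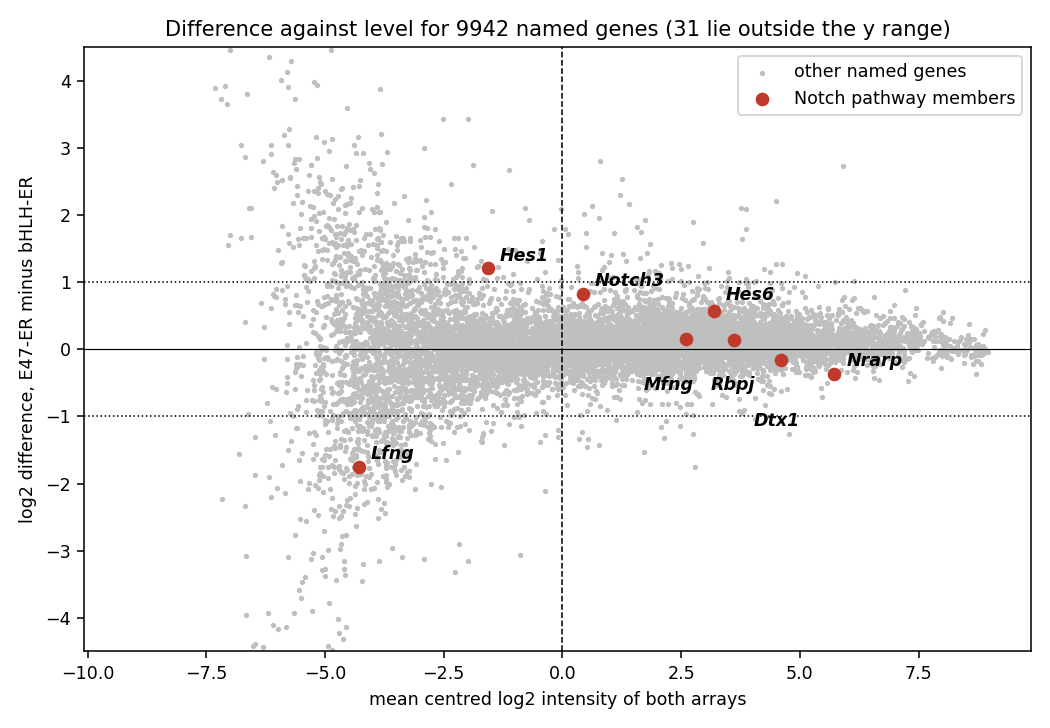
Log2 difference (E47-ER minus bHLH-ER, y axis) against the mean centred log2 intensity of both arrays (x axis) for 9942 named genes in grey, with the 8 members in red; dotted lines mark 2-fold and the dashed line the level limit. The spread widens toward the left, where Lfng lies at -1.75. Of the 200 genes nearest to Lfng in level, 17 had a less positive difference. By contrast, Nrarp at -0.36 lies at the lower edge of a narrower band.

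Rbpj (Entrez gene 19664), the DNA-binding partner of all Notch receptors, had intensities of 13.4 with E47-ER and 12.2 with bHLH-ER. The log2 difference of 0.15 stood in the middle of genes of its level, with 97 of 200 more positive and 103 less positive. It was also smaller than the SD between probes given above.

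Dtx1 (Entrez gene 14357), the Deltex ubiquitin ligase that is both a target and a modifier of Notch, had intensities of 23.6 with E47-ER and 26.6 with bHLH-ER, a log2 difference of -0.16. Nrarp (Entrez gene 67122), a direct Notch target whose ankyrin-repeat protein binds the Notch complex and limits it, was at 48.4 with E47-ER and 62.7 with bHLH-ER, a difference of -0.36. Both E47-ER values were the lower ones, and both genes were well above the level limit. In the setting reported, the difference of Dtx1, like those of Mfng and Rbpj, was smaller than the SD of 0.20 between probes. That of Nrarp was larger. For Dtx1 this depended on the scaling. Its difference was -0.26 with equal 75th percentiles, -0.25 with quantile normalization, -0.27 with loess and -0.21 with centring on the named probes. With 0.5 added before the log it stayed at -0.16. The SD between probes leaves out variation between cultures, so passing it does not show an effect of the construct. Genes of these levels varied little and had mostly positive differences. For Dtx1, 12 of the 200 nearest genes had a less positive difference (median of the 200, 0.18; robust SD, 0.21). For Nrarp, 2 of 200 did (median 0.13; robust SD 0.19). Nrarp was lower than Dtx1 in rank over all measured genes as well, at percentile 3.95 of the differences, against percentile 14.3 for Dtx1.

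**Figure D3:**
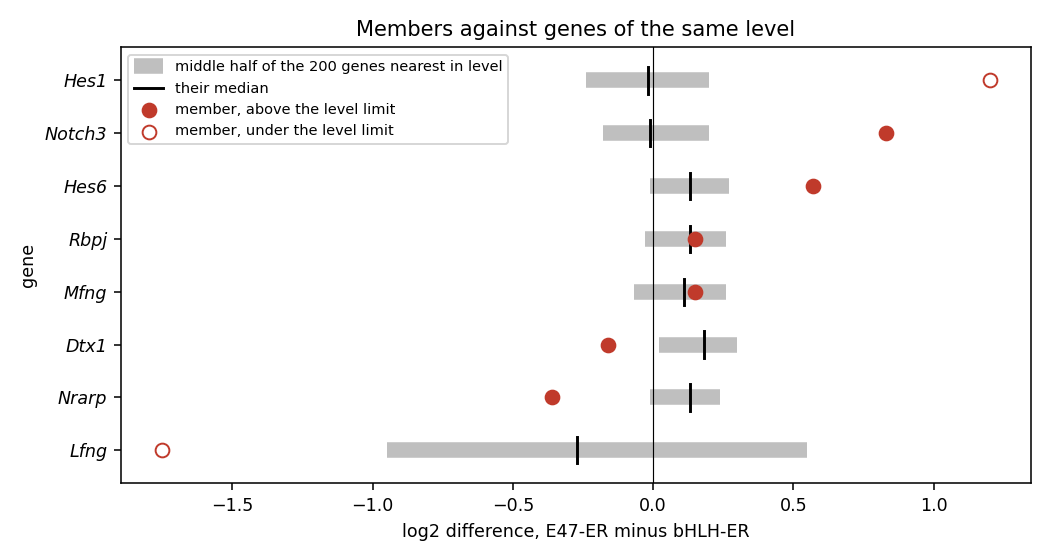
Log2 difference (E47-ER minus bHLH-ER) of each member (circles; filled above the level limit, open under it) beside the 200 named genes nearest to it in mean level, shown by their interquartile range (grey bar) and median (black line). Hes1, Notch3 and Hes6 lie to the right of their bars, Rbpj and Mfng within them, and Dtx1, Nrarp and Lfng to the left.

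Hes1 (Entrez gene 15205), a bHLH repressor and the best known Notch target, had an intensity of 0.525 with E47-ER and 0.230 with bHLH-ER. Both values were under the level limit, so Hes1 was not counted among the measured genes. Its log2 difference was 1.20, a 2.30-fold higher value with E47-ER. Of all named genes under the limit, 9.61% passed 2-fold upward and 9.25% downward, but Hes1 lay in the less variable part of them. Of the 200 genes nearest to it in level, 3 passed 2-fold upward and 4 downward, 1 had a more positive difference than Hes1, and the robust SD was 0.33. With 0.5 added before the log, the difference of Hes1 was 0.50. Hes6 (Entrez gene 55927), a related bHLH protein known to counteract Hes1, was well above the limit, at 11.5 with E47-ER and 7.83 with bHLH-ER. Its log2 difference of 0.57 was exceeded by 8 of the 200 genes of its level, whose median was 0.13 and robust SD 0.21.

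E proteins such as E47 bind E-boxes, of which CAGCTG and CAGGTG are preferred forms. The 250 bases before the annotated start, taken from RefSeq (GRCm38.p6), were searched on both strands for these letters, for the Rbpj core TGGGAA and for CACNAG, the N-box bound by Hes proteins. A promoter was in the table used for 8 of the 10 members, all except Hes1 and Mfng, and no match overlapped one of another motif. Of 32851 promoters, 13.0% hold CAGCTG, 17.2% CAGGTG, 21.6% TGGGAA and 36.7% CACNAG. The windows of the following 3 genes are shown because they are the measured members whose differences lay farthest from those of genes of their level; capitals mark every match.
Hes6: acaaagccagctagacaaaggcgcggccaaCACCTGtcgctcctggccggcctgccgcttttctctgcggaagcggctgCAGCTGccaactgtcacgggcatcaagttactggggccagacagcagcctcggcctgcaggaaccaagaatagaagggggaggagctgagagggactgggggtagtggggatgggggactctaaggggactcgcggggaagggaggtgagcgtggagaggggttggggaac
Notch3: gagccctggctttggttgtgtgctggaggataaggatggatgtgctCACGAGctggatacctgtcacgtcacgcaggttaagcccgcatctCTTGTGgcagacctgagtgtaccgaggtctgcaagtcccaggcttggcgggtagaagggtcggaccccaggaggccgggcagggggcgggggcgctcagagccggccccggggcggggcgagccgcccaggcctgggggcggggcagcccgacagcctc
Nrarp: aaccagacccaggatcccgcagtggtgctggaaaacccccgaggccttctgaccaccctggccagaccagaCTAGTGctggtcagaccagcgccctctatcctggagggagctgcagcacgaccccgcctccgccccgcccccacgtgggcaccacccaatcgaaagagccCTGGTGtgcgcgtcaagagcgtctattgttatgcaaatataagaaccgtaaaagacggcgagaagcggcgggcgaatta
The Hes6 window (chr1:91414039-91414288, minus strand) holds an E-box of each form, CAGCTG starting 171 bases before the start and CAGGTG, on the other strand, starting 220 bases before it. A second annotated start of Hes6 has CAGCTG 150 bases before it and an N-box match, CACCAG, 237 bases before it. The Notch3 window (chr17:32166891-32167140, minus strand) and the Nrarp window (chr2:25180508-25180757, plus strand) hold neither E-box form and have 2 N-box matches each. Dtx1 and Notch2 had 1 N-box match each and no E-box of these forms, and Maml1 had no match of any of the 4 motifs. Lfng had 1 CAGCTG, 2 TGGGAA and 1 N-box match, and the first start of Rbpj had 1 CAGGTG and 2 TGGGAA matches. These are letters in short windows, not measured binding.

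Genes of the wider pathway, taken by role, gave a similar mixture. Of 72 ligand, receptor, processing, nuclear and modifier genes, the members included, 52 have a probe of that name. Of the 52, 34 were measured, against 5563 of all 10208 named genes. Of these 34, 20 had positive and 14 negative differences, 1 passed 2-fold upward and none downward; over all measured genes, 66.7% were above 0, 1.35% passed 2-fold upward and 0.27% downward. Their median log2 difference was 0.07, against 0.11 for all measured genes. Without the members it was 0.04 over 28 genes.

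Of the 5 ligand genes, Dll3 and Jag1 were measured. Dll3 was at 7.79 with E47-ER and 8.24 with bHLH-ER, and Jag1 at 1.68 with E47-ER and 1.59 with bHLH-ER. Neither differed by more than 1.07-fold. Dll1, Dll4 and Jag2 were under the level limit; Jag2 was at 0.385 with E47-ER and 0.0486 with bHLH-ER, both far under the limit, so its 7.99-fold higher value was not counted.

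Among the sugar-transferring enzymes, Rfng, the radical fringe gene, was at 5.96 with E47-ER and 4.60 with bHLH-ER, a difference of 0.39. Poglut1, which adds O-glucose to Notch, had a difference of 0.20, and the O-fucosyltransferase gene Pofut1 was just under the limit, at 1.02 with E47-ER and 0.924 with bHLH-ER. All 3 measured genes of this role, Mfng included, had positive differences, as did 66.7% of all measured genes. Of the cleavage genes, the sheddase gene Adam17 was at 11.6 with E47-ER and 8.43 with bHLH-ER, a difference of 0.47, while Adam10, the other sheddase, stood at -0.06. The gamma-secretase subunit genes Psenen and Ncstn had differences of 0.13 and -0.27, the protease gene Furin -0.07, and the presenilin gene Psen2 was under the limit. In the nuclear complex, the acetyltransferase genes Kat2a and Kat2b stood at -0.18 and -0.07. All other Hes and Hey genes with a probe were under the limit, as Hes1 was, and their differences had both signs: 0.15 for Hes3 and 0.24 for Heyl, but -0.30 for Hes2, -0.50 for Hey1 and -0.48 for Hey2.

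Of the 19 measured corepressor, modifier and turnover genes, 2 were at least 1.5-fold higher, against 5.41% of all measured genes, and 1 at least 1.5-fold lower, against 1.24%. Tle3, a Groucho-type corepressor that Hes proteins recruit, was 2.30-fold higher (8.78 with E47-ER and 3.86 with bHLH-ER). Fbxw7, whose ubiquitin ligase marks intracellular Notch for degradation, was 1.57-fold higher (6.01 with E47-ER and 3.87 with bHLH-ER). Spen, a corepressor bound by Rbpj, was 1.54-fold lower (3.84 with E47-ER and 5.98 with bHLH-ER). The other 16, Dtx1 and Nrarp among them, were within 1.5-fold.

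Genes of T cells that are known or reported as Notch targets differed in both directions. This list was chosen with results for several of its genes known, so its spread is not evidence about Notch targets. Of 12 measured genes, 4 had positive and 8 negative differences, with a median of -0.17, against 66.7% above 0 and a median of 0.11 over all measured genes. At 2-fold, 2 were higher, against 1.35% of measured genes, and 2 lower, against 0.27%. Ptcra, the pre-TCR alpha chain, was 4.25-fold higher (30.8 with E47-ER and 7.32 with bHLH-ER) and Cdkn1a, the p21 inhibitor, 2.04-fold higher. Il2ra was 2.41-fold lower (18.2 with E47-ER and 44.4 with bHLH-ER), Cdk6 2.73-fold lower and Gata3 1.97-fold lower. The folds of Cdk6 and Cdkn1a rest on dim probes. Cdk6 was at 0.899 with E47-ER, under the level limit of about 1.03, and at 2.48 with bHLH-ER. Cdkn1a was at 2.48 with E47-ER and 1.23 with bHLH-ER. Myc, a main Notch1 target in T-cell leukaemia, was at 47.2 with E47-ER and 59.7 with bHLH-ER, a difference of -0.33. These genes also answer to many other factors, and Ptcra is a known target of E proteins themselves.

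**Figure D4:**
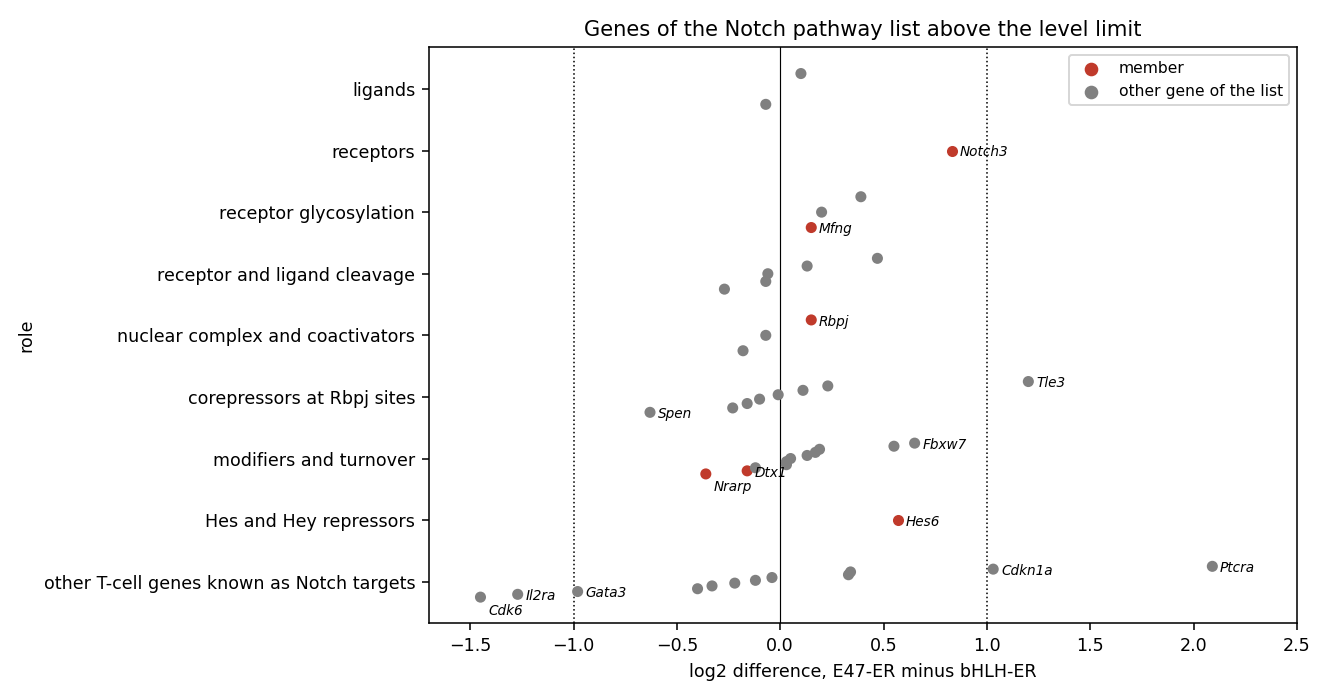
Log2 difference (E47-ER minus bHLH-ER, x axis) of the 46 measured genes of the Notch pathway list, 1 point per gene and 1 row per role, with members in red and dotted lines at 2-fold; members and genes past 1.5-fold are named. Points of most roles lie close to 0 on either side; those of the other T-cell targets lie between -1.45 for Cdk6 and 2.09 for Ptcra.

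The arrays showed T-lineage RNA, for example Cd3d at 59.05 with E47-ER and 46.9 with bHLH-ER. All 11 T-lineage markers with a probe, of 14 looked up, were measured, against 5563 of all 10208 named genes. Of these 11 markers, 9 were higher with E47-ER, with a median of 0.39, against 66.7% above 0 and a median of 0.11 over all measured genes. Beside Ptcra, Rag1 was 2.02-fold, Cd8b1 1.81-fold, and Cd3g and Cd4 each 1.53-fold higher, and Cd3e and Zap70 had negative differences of -0.47 and -0.18. Of 22 markers of B, myeloid, erythroid and stromal cells, 14 have a probe. Of the 14, 7 were measured, against 5563 of all 10208 named genes. The B-lineage genes Cd79a (12.7 with E47-ER and 14.7 with bHLH-ER), Pax5 and Blk had differences of -0.20, -0.32 and -0.02. Pax5 (0.927 with E47-ER and 1.17 with bHLH-ER) and Blk (1.42 with E47-ER and 1.46 with bHLH-ER) lay near the level limit. The B-lineage genes Cd79b and Ms4a1 were under it. The myeloid gene Itgam was 1.68-fold higher, near the level limit (1.44 with E47-ER and 0.866 with bHLH-ER), and the erythroid gene Car1 had a difference of -0.10. Pdgfrb, a marker of stromal cells that can carry Notch ligands, was 2.23-fold lower (2.91 with E47-ER and 6.56 with bHLH-ER), while Sparc, another one, had a difference of 0.19. Their part in the differences of the Notch genes was not tested.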

How the data were processed

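One array was hybridised for each of the 2 constructs. The deposited values are intensities of 20289 probes on each array, of which 177 are missing with E47-ER and 173 with bHLH-ER. The authors had background-subtracted and scaled these linear intensities before deposit, judging from their range (-0.0609 to 555 with E47-ER and -0.0829 to 529 with bHLH-ER) and medians (0.939 with E47-ER and 0.950 with bHLH-ER). The sources used here do not give the method, scanner or genome build. In all, 668 probes without a positive value on both arrays were left out. For each array, the median log2 intensity of the remaining 19621 probes was subtracted. Of all probes, 10349 carry 1 gene symbol in the platform annotation, each matched by Entrez gene to RefSeq (GRCm38.p6), none carries several, and 9940 are unnamed here. Probes of a gene were averaged.

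Differences are E47-ER minus bHLH-ER. No test was possible with 1 array per construct, and the number of arrays limits the precision. The members, lists and roles were chosen with earlier results of these data known. All members are named. Every measured gene of the ligand, receptor, glycosylation, cleavage, nuclear and Hes roles is named, and from other roles those past 1.5-fold. The dim genes named beside the members, Myc and the marker examples are outside this rule and were picked with their values in view. Simulated arrays with known changes were used to check the calculations. Python 3.11.15, pandas 2.3.3 and statsmodels 0.14.6 (loess, span 0.3) were used. The alternatives were other scaling, level limits, an offset and probe choice.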

Additional observations from a re-analysis of the deposited data

How the results depend on the processing

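Of the 8 alternatives, 3 (both other level limits and the choice of the brightest probe) cannot change a member's difference, since each member has 1 probe. Under the other 5, of which centring on the named probes alone was chosen after seeing the data, the 8 members with a probe kept the direction of their difference. Ranges over the alternatives were 0.61 to 0.83 for Notch3, 0.45 to 0.57 for Hes6, 0.03 to 0.15 for Rbpj, 0.04 to 0.15 for Mfng, -0.27 to -0.16 for Dtx1 and -0.48 to -0.36 for Nrarp. Hes1 ranged between 0.50 and 1.27 and Lfng between -1.86 and -0.17, with the smallest size for both after adding 0.5. With equal 75th percentiles, the median of all measured genes shifted by -0.11, and 52 genes were at least 2-fold higher and 24 lower, against 75 and 15 in the setting reported. A 25th percentile level limit let in Hes1, which made 1 member at least 2-fold and 2 members at least 1.5-fold higher. That limit gave 129 higher and 53 lower genes in all. At the 75th percentile limit Notch3 and Mfng dropped out, so 0 members were 1.5-fold higher. The median over the 4 members left was then -0.01, and 25 genes were 2-fold higher and 4 lower, of which 1 higher and 1 lower gene belong to the full pathway list, against 3 and 2. The pathway list median was 0.03, and was negative with equal 75th percentiles (-0.08), quantile normalization (-0.05), loess (-0.04) and named-probe centring (-0.02). No paired analysis was possible because there is 1 array per construct. Dim probes, such as those of Hes1 and Lfng, limit what can be said of these genes.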
